A study of Mus musculus with 8 samples.

Results

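Heat shock proteins and other molecular chaperones were followed in Stat5-null mouse embryonic fibroblasts that carried a STAT5 mutant. The set was a list of 46 genes: the heat shock transcription factors Hsf1 and Hsf2, 6 small heat shock proteins, 18 chaperones and cochaperones of the cytosol, 3 mitochondrial chaperones and 17 genes of protein folding and stress in the endoplasmic reticulum (ER). Every probe set annotated with exactly 1 gene symbol on this list was a member. This gave 109 of the 45037 tested probe sets, covering 44 of the 46 genes, since Hsf1 and Hsp90ab1 had no probe set of their own here. All 8 arrays came from C57BL/6 fibroblasts without endogenous Stat5, into which a retrovirus had brought 1 of 2 mutants. EA is described in the labels as an EE to AA change in the binding domain, and YF as Y694F, which removes the tyrosine that JAK2 phosphorylates. Both mutants were profiled unstimulated and with growth hormone given for 120 minutes, so there were 4 groups of duplicate arrays (EA, EA with hormone, YF, YF with hormone), n = 2 each. Fibroblasts with wild-type STAT5 or without any STAT5 were not analysed here, and whether each mutant line was a clone or a pool of infected cells is not stated in the labels. Duplicates are described as biological, so p-values measure the spread between these cultures of each mutant line and not between independently infected lines.

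Chaperones bind unfolded proteins and help them fold, refold or reach degradation. In the cytosol, proteotoxic stress frees heat shock factor 1 (HSF1) to bind heat shock elements, which are inverted repeats of the unit GAA, and to induce genes such as Hspa1a, Hspa1b, Hsph1, Dnajb1 and Hspb1. In the ER, unfolded proteins draw the chaperone BiP, the product of Hspa5, away from the sensors IRE1, PERK and ATF6, and the transcription factors XBP1 and ATF6 then induce ER chaperones through ER stress response elements. In such an element the letters CCAAT and CCACG stand 9 bases apart. Fibroblasts secrete much collagen and depend on the ER chaperones for it.

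The promoters below show the motif letters of both systems in selected members that hold them. Hspb1 had the largest difference between the mutants, Hsph1 and Dnajc3 were lower in EA cells, Hspa1b is a copy of Hspa1a, the gene with the largest hormone value in YF cells, and Hspa5 is the standard readout of ER stress. Each runs 5' to 3' on the gene's strand, from 250 bases before to 50 bases after the annotated start, in the RefSeq annotation of GRCm38.p6. Capitals mark matches to the heat shock element letters GAANNTTC or TTCNNGAA, to the pair of CCAAT and CCACG, or to TGACGTG, read on both strands. The windows lie at chr5:135887669-135887968 on the plus strand (Hspb1), chr5:149636266-149636565 on the minus strand (Hsph1), chr17:34959189-34959488 on the minus strand (Hspa1b), chr2:34771840-34772139 on the plus strand (Hspa5) and chr14:118937682-118937981 on the plus strand (Dnajc3).
Hspb1: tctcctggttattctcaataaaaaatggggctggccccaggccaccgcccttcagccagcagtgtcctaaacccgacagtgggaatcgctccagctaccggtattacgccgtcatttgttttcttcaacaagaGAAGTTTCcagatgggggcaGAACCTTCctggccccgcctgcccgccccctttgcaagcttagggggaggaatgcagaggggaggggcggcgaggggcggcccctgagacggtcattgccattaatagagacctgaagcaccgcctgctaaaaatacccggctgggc
Hsph1: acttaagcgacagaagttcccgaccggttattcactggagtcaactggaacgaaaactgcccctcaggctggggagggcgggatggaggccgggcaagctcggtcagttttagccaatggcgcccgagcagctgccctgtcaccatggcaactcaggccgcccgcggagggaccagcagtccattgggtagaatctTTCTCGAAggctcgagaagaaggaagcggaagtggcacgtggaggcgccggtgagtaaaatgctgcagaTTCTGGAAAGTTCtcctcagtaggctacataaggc
Hspa1b: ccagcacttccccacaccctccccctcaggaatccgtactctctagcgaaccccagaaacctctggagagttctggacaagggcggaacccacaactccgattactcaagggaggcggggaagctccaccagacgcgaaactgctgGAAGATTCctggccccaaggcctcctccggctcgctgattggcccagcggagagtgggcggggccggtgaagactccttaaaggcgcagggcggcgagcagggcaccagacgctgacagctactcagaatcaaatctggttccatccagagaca
Hspa5: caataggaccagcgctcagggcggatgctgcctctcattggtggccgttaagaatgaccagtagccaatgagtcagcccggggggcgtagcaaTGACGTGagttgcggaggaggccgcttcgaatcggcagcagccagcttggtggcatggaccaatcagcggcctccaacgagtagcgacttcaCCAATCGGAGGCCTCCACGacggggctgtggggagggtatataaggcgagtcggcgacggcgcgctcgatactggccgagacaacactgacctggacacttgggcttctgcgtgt
Dnajc3: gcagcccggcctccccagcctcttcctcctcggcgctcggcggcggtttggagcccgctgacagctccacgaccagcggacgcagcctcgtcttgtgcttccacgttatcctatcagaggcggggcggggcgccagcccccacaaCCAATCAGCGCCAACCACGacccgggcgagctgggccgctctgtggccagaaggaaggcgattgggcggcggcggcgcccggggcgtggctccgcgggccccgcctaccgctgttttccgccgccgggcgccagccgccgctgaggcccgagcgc

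Hspb1 held GAANNTTC matches at -117 and -97 from the start site, and Hspa1b held 1 at -104. Hsph1 held a TTCNNGAA match at -54 and a longer run past the start in which both forms overlap, which is the arrangement of 3 units. The ER stress pair began at -65 in Hspa5 and at -105 in Dnajc3. Among promoters not printed, a window of Hspb6, which was higher in EA, held GAANNTTC at -120. The windows of Dnajb1, which was lower in EA, held neither heat shock form. A promoter was found for 36 of the 46 genes, in 45 windows, because some genes have more than 1 start. GAANNTTC occurred in the promoters of 11 of these genes (13 of 45 windows, 28.9%), against 7.86% of all 32851 promoter windows. TTCNNGAA occurred in 5 genes (15.6% of windows, 8.52% of all), and the arrangement of 3 units in Dnajb6, Hspd1, Hspe1 and Hsph1 (13.3%, against 0.603%). A window of Hspd1 overlaps that of Hspe1 on the opposite strand, and both hold the same stretch. The windows of Dnajb6 overlap each other, as do those of Hsph1. The member shares thus count some letters more than once. By class, GAANNTTC lay in 3 of 4 small heat shock genes, 6 of 15 cytosolic genes, both mitochondrial genes (in their shared stretch) and 0 of 14 ER genes. The ER stress pair was found in 7 of 14 ER genes (Calr, Canx, Creld2, Dnajc3, Hsp90b1, Hspa5 and Pdia6) and in no member of another class, against 0.119% of all windows. TGACGTG was found in Hspa5 alone among the members, against 2.01% of all windows. Letters that match a motif are a description of sequence and not a binding site.

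Expression was read as deposited log2 values per probe set. Means below 4 over the 8 arrays form a dense low group in which the scale is unknown, and 20 of the 109 member probe sets lay there, including every probe set of Hsf2 and Hspb7. The first principal component held 69.9% of the variance and split the mutants, with EA at -66.4 to -61.4 and YF at 62.4 to 64.9. The second held 12.6%, and on it YF with hormone replicate 1 stood apart at -55.8, against -3.28 for its partner and 25.8 and 32.6 for unstimulated YF. Of the signs of RNA quality, that of Gapdh split the mutants, while that of actin overlapped and leaned the other way. The log2 ratio of the 3' to the 5' control probe sets of Gapdh was 0.94 to 0.99 on the EA arrays and 1.10 to 1.42 on the YF arrays, while that of actin was 3.12 to 3.44 and 2.80 to 3.23. Fibroblast markers were present, with 9 of 10 at a mean of 4 or more and a summed level of 17.0 in EA and 17.1 in YF on the log2 scale. Averaged over treatments, 5 of the 10 were lower in EA and 0 higher (limma, adjusted p under 0.05). The largest differences were in Thy1 (7.64 against 12.68, unstimulated) and Dcn (3.74 against 7.41, with EA in the low group). The others were Col1a1 (-0.24), Fn1 (-0.15) and Lum, which lay in the low group. Of 8 smooth muscle and myofibroblast markers, 7 were above the low group, and their summed level was 14.74 to 15.04 in EA and 15.4 to 15.7 in YF. The largest differences in that list were Cnn1 (-4.82) and Myh11 (-4.47, with EA in the low group), and Des lay in the low group throughout. The summed level of 4 endothelial markers was 8.10 to 8.33 in EA and 9.45 to 10.1 in YF, with Pecam1, Cdh5 and Kdr in the low group. That of 5 macrophage markers was 11.0 to 11.5 and 8.98 to 9.84, with Ptprc, Adgre1 and Lyz2 in the low group and Cd68 higher in EA (3.15). Csf1r, also above the low group, leaned the other way (-0.38, SE 0.18) and did not pass. Of 8 skeletal and cardiac markers, 2 lay above the low group, and the sums overlapped (8.02 to 8.71 in EA, 8.10 to 9.15 in YF). All 6 epithelial markers lay in the low group, and the sums of 2 adipocyte markers also overlapped between the mutants (12.24 to 12.34 and 11.99 to 12.38). The part of these lists and of RNA quality in the mutant differences below was not tested.

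The first question was whether the chaperones respond to growth hormone. No member did so by the test used. With limma and adjustment over all tested probe sets, 0 of 109 member probe sets passed an adjusted p of 0.05 in EA cells, where 0.135% of all probe sets passed. The count was also 0 in YF cells (0.18% of all), for the difference between the responses (0.02%) and for the response averaged over mutants (0.211%). At an unadjusted p under 0.05 there were 8 member probe sets in EA cells (3 up, 5 down), 19 in YF cells (7 up, 12 down), 16 for the difference and 13 for the average. These are 7.34%, 17.4%, 14.7% and 11.9% of the members, against 5.62%, 11.4%, 9.74% and 7.85% of all probe sets. Among the 89 member probe sets with a mean of 4 or more the shares were 8.99%, 21.3%, 18.0% and 14.6%. Among all probe sets at that level they were 10.4%, 21.9%, 16.6% and 14.9%. Over the 44 genes, each read by its probe set with the highest mean, the median log2 change was -0.0009 in EA and 0.0066 in YF, against 0.0206 and -0.0376 over all 18193 genes. The 95% interval of the change lay within 1 log2 unit of 0 on both sides for 43 of 44 genes in EA cells, the exception being Hspb1. In YF cells this held for 41 of 44, the exceptions being Hspb1, Hspa1a and Sdf2l1. The median half-width of these intervals was 0.246.

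**Figure D1:**
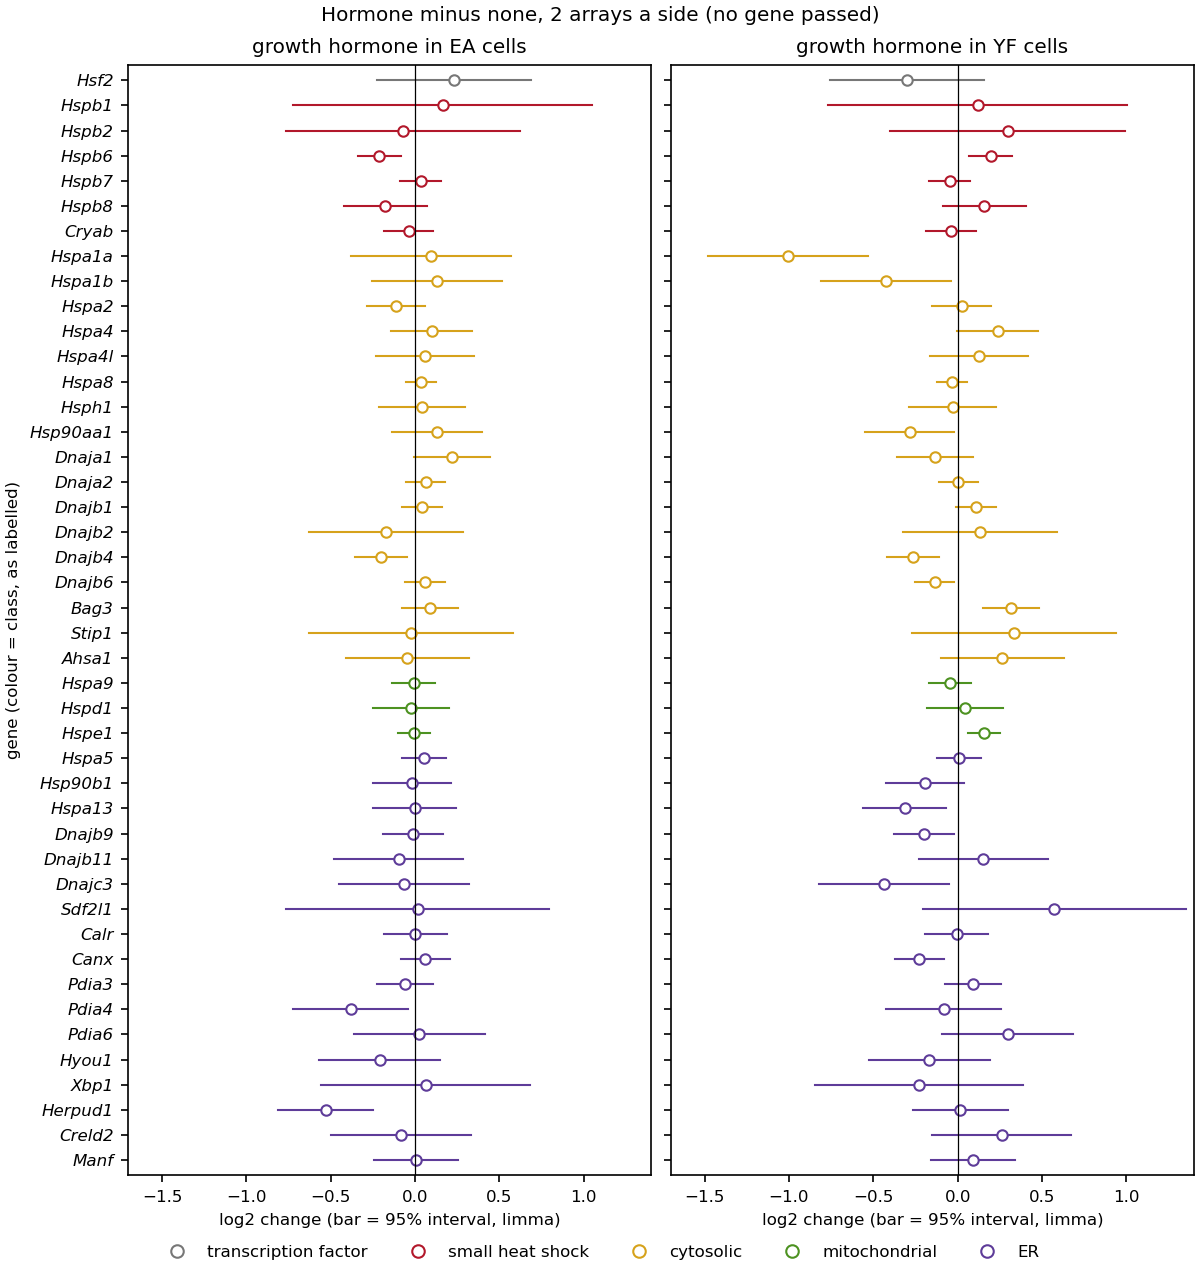
Log2 change with growth hormone (hormone minus none) for each of 44 chaperone genes in EA cells (left) and YF cells (right), with points for the estimate, bars for the limma 95% interval and colours for the class. Open points mark genes that did not pass, which here is every gene; Herpud1 lies at -0.53 in EA and Hspa1a at -1.004 in YF.

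Hspa1a and Hspa1b encode the stress-inducible HSP70 of the cytosol. By gene, Hspa1a had the largest hormone value in YF cells, and Sdf2l1 (0.57, SE 0.31) and Dnajc3 (-0.44, SE 0.15) came before Hspa1b in size. By probe set, a dimmer one of Dnajc3 had -1.14, and it did not pass either. Hspa1a was at 8.47 and 8.85 on the unstimulated YF arrays and at 7.43 and 7.87 with hormone. The hormone arrays were both lower, a log2 change of -1.004 (SE 0.187, 95% interval -1.48 to -0.53, adjusted p = 0.19). In EA cells the values were 8.31 and 8.25 without and 8.32 and 8.43 with hormone, a change of 0.10 (SE 0.19, adjusted p = 0.89). The difference between these responses was 1.10 (SE 0.26, adjusted p = 0.37) and did not pass. Hspa1b was at 13.37 and 13.40 in unstimulated YF and at 12.76 and 13.16 with hormone, and its change was -0.43 (SE 0.15, adjusted p = 0.40). Its arrays did not overlap in YF cells, and its other probe sets had changes of -0.64 and -0.70. In EA cells the arrays overlapped, at 12.95 and 12.88 without and 12.91 and 13.18 with hormone. The genes are near-identical copies, and their promoter windows match at 296 of 300 bases, so values of the pair cannot be assigned to 1 of them with certainty. For both genes the lower of the hormone arrays was replicate 1, the array that stood apart on the second component.

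Herpud1, an ER membrane protein of the degradation machinery, had the lowest adjusted p among members in EA cells. It was at 10.69 and 10.77 unstimulated and at 10.27 and 10.12 with hormone, without overlap, a change of -0.53 (SE 0.11, 95% interval -0.81 to -0.25, adjusted p = 0.38). Its second probe set gave -0.46, and in YF cells the change was 0.02 (SE 0.11), with arrays at 10.21 and 10.26 without and 10.40 and 10.10 with hormone. Hspb6, a small heat shock protein of muscle and other contractile cells, had values of opposite sign, -0.21 in EA and 0.20 in YF (SE 0.05 each). The difference of its responses, -0.41 (SE 0.07), had the lowest adjusted p of that comparison among members, 0.26, which did not pass. Bag3, the cochaperone that works with HSPB8 in selective autophagy, was at 0.32 in YF (SE 0.07, adjusted p = 0.22) and 0.09 in EA. The other central ER genes did not pass either. Hspa5 had 0.05 in EA and 0.01 in YF (SE 0.05), and Hsp90b1 had -0.02 and -0.19 (SE 0.09). Xbp1 had 0.06 and -0.23, with a wide SE of 0.24.

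The second question was how the chaperones differ between EA and YF cells. Here some members differed, and most of the called probe sets were lower in EA. Averaged over the treatments, 30 of 109 member probe sets were lower in EA and 6 higher (limma, adjusted p under 0.05), while 8.38% of all probe sets were lower and 8.17% higher. Much of the background lies in the low group, so the probe sets with a mean of 4 or more are the closer comparison. Of the 89 such member probe sets, 33.7% were lower and 6.74% higher, against 16.9% and 16.8% of all 20264. Without hormone 20 of these 89 were lower (5.25% of all 45037) and 4 higher (5.51%), and with hormone 22 were lower (5.8%) and 2 higher (4.37%). Among the 20264 with a mean of 4 or more, 2163 were lower and 2292 higher without hormone. With hormone these were 2363 and 1836. Of the member probe sets, 16 were lower and 2 higher in both treatments, and 0 passed in opposite directions. Among all 45037 probe sets, 1665 were lower and 1355 higher in both treatments, and 12 passed in opposite directions. The 2 treatments do not share arrays, but they share the mutant lines and, in the fit, a common spread per probe set. The calls in both treatments are therefore not independent.

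By gene the picture was less one-sided. With 1 probe set for each of the 44 genes, 8 were lower and 4 higher in EA averaged over treatments, where 10.5% of all genes were lower and 12.3% higher. Of the 42 genes with a mean of 4 or more, 19.0% were lower and 9.52% higher, against 16.6% and 19.7% of all genes at that level. The share lower was thus near the background by gene and above it by probe set. The share higher was below the background by both. In total 30 of the 42 genes did not pass, against 6872 of all 10779 genes at that level. The median difference over the 44 genes was -0.16, against 0.02 over all 18193 genes. In bulk RNA, fewer cells of a type and less RNA per cell cannot be told apart. The calls in a single treatment rest on few arrays. Without hormone the count of 24 became 14 when EA replicate 1 was left out, 14 for YF replicate 1 and 13 for YF replicate 2. With hormone the count of 24 became 10 without EA with hormone replicate 2. The averaged count of 36 became 26 to 35 when any 1 array was left out.

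**Figure D2:**
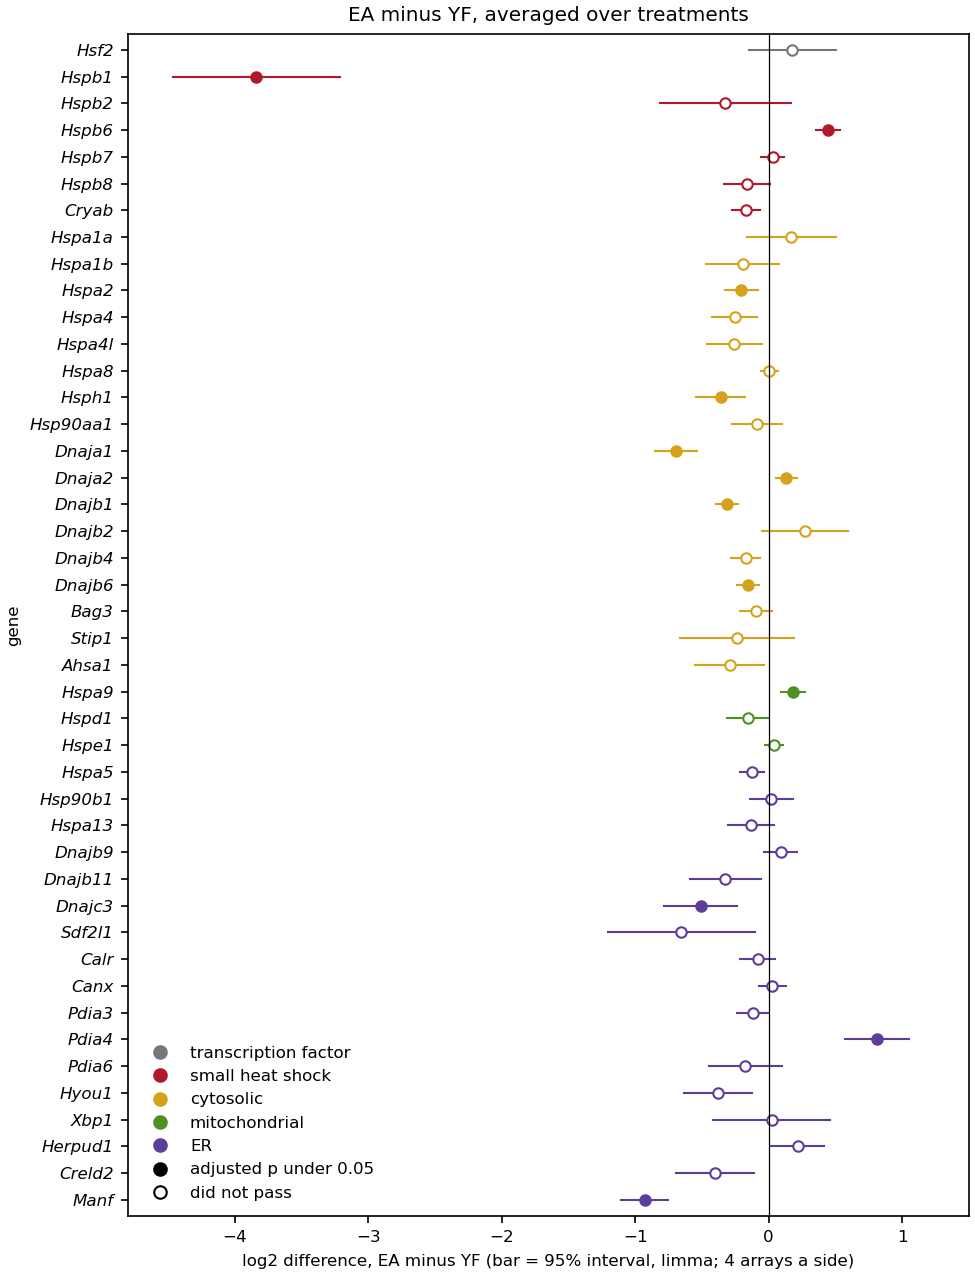
Log2 difference EA minus YF, averaged over treatments with 4 arrays a side, for 44 chaperone genes, with bars for the limma 95% interval and colours for the class. Filled points passed an adjusted p of 0.05: 8 genes lie left of 0, led by Hspb1 at -3.84, and 4 lie right of 0, led by Pdia4 at 0.81.

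Among the small heat shock proteins, which hold unfolded proteins in a state that can be refolded, 1 of 6 was lower in EA and 1 higher. Hspb1 encodes HSP27, which also binds and protects actin filaments. Its log2 values were 8.70 and 9.75 in EA, 9.29 and 9.49 in EA with hormone, 13.11 and 13.07 in YF, and 13.38 and 13.03 in YF with hormone. Every EA array was thus more than 3 log2 units below every YF array, and the EA arrays differed from each other more than the YF arrays did. The averaged difference was -3.84 (SE 0.25, n = 4 arrays a side, adjusted p = 0.0007), or 14.3-fold lower in EA. It was -3.86 without hormone (adjusted p = 0.0037) and -3.82 with hormone (adjusted p = 0.0040), and a second probe set gave -4.06 (SE 0.27). Hspb6, which encodes HSP20, went the other way, at 13.38 and 13.44 in EA, 13.25 and 13.15 in EA with hormone, 12.79 and 12.74 in YF, and 12.98 and 12.93 in YF with hormone. All EA arrays were higher, by 0.44 on average (SE 0.04, adjusted p = 0.0014), with the wider gap in unstimulated cells (0.65, against 0.24 with hormone). The call with hormone was lost when any 1 of the 8 arrays was left out (adjusted p 0.059 to 0.13). Cryab, which encodes alpha B-crystallin, had -0.17 (SE 0.04, adjusted p = 0.051) and Hspb8 had -0.16 (SE 0.07, adjusted p = 0.23). Hspb2, whose mean of 4.09 is near the bound, had -0.33 (SE 0.19, adjusted p = 0.44).

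The cytosolic class held 5 lower genes and 1 higher one of 17. Dnaja1 and Dnajb1 encode J-domain proteins, which hand clients to HSP70 and start its ATPase. Dnaja1 was at 12.57 and 12.59 in EA, 12.73 and 12.87 in EA with hormone, 13.46 and 13.44 in YF, and 13.20 and 13.43 in YF with hormone. The mutants did not overlap, the difference was -0.69 (SE 0.06, adjusted p = 0.0020), and all 3 probe sets of the gene passed, at -0.57 to -0.85. Dnajb1 was at 12.50 and 12.44 in EA, 12.48 and 12.54 in EA with hormone, 12.73 and 12.77 in YF, and 12.82 and 12.90 in YF with hormone. Its smaller difference of -0.31 (SE 0.03, adjusted p = 0.0033) was also without overlap, and its dimmer probe set gave -0.27 and did not pass (adjusted p = 0.30). Hsph1, an HSP110 that exchanges the nucleotide of HSP70, was at 13.13 and 13.36 in EA, 13.39 and 13.18 in EA with hormone, 13.64 and 13.64 in YF, and 13.64 and 13.58 in YF with hormone. Its difference was -0.36 (SE 0.07, adjusted p = 0.027), and -0.88 on its second probe set. The call of Hsph1 was lost when any 1 array other than EA replicate 2 and EA with hormone replicate 1 was left out (adjusted p 0.0565 to 0.0864).

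Smaller differences were called for 3 more cytosolic genes. Hspa2, an HSP70 best known from the testis, was lower in EA, with a difference of -0.21 (SE 0.05, adjusted p = 0.045). Its arrays were at 12.15 and 12.31 in EA, 12.11 and 12.12 in EA with hormone, 12.37 and 12.36 in YF, and 12.33 and 12.45 in YF with hormone. Dnajb6, a J-domain protein that holds back aggregation, was lower at -0.16 (SE 0.03, adjusted p = 0.031), with arrays at 13.26 and 13.22 in EA, 13.28 and 13.32 in EA with hormone, 13.45 and 13.55 in YF, and 13.35 and 13.37 in YF with hormone. Dnaja2, another J-domain partner of HSP70, was higher by 0.13 (SE 0.03, adjusted p = 0.048), with arrays at 13.61 and 13.56 in EA, 13.69 and 13.61 in EA with hormone, 13.45 and 13.52 in YF, and 13.50 and 13.48 in YF with hormone. The 3 calls rest on small differences. Leaving out 1 array ended that of Hspa2 for every array except EA replicate 2, that of Dnajb6 for every array except YF replicate 1, and that of Dnaja2 for every array except EA with hormone replicate 2, with adjusted p up to 0.17. The direction of Dnaja2 does not hold for the gene as a whole, since another of its probe sets was lower in EA, at -0.38 (SE 0.03, adjusted p = 0.0017). Of the inducible pair, neither Hspa1a (0.17, SE 0.13, adjusted p = 0.60) nor Hspa1b (-0.20, SE 0.11, adjusted p = 0.39) passed. These averages join treatments that differed in sign, and no single treatment passed either. Hspa1a had -0.38 without hormone (SE 0.19, adjusted p = 0.37) and 0.72 with hormone (SE 0.19, adjusted p = 0.083). Hspa1b had -0.47 without (SE 0.15, adjusted p = 0.15) and 0.08 with hormone (SE 0.15, adjusted p = 0.69). Hspa8, the constitutive HSP70, had a difference of 0.006 (SE 0.025), and the other 8 cytosolic genes that were not called lay between -0.29 and 0.28.

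The mitochondrial chaperones stayed close together. Hspa9, the mitochondrial HSP70 that pulls imported proteins through the inner membrane, was higher in EA by 0.18 (SE 0.04, adjusted p = 0.023), and by 0.30 on a second probe set. Its arrays were at 13.39 and 13.29 in EA, 13.37 and 13.30 in EA with hormone, 13.15 and 13.20 in YF, and 13.14 and 13.12 in YF with hormone. This call was lost without any 1 array other than EA replicate 2 and EA with hormone replicate 2 (adjusted p up to 0.090). Hspd1 and Hspe1, the subunits of the HSP60 and HSP10 folding chamber, had -0.16 (SE 0.06, adjusted p = 0.20) and 0.04 (SE 0.03, adjusted p = 0.52).

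Of the 17 ER genes, 2 were lower and 1 higher in EA. Manf, a secreted and ER-resident protein that is induced by ER stress, was at 10.89 and 11.07 in EA, 11.06 and 10.91 in EA with hormone, 11.79 and 11.94 in YF, and 12.02 and 11.90 in YF with hormone. All EA arrays were lower, a difference of -0.93 (SE 0.07, adjusted p = 0.0012), or 1.90-fold. Dnajc3, the J-domain protein P58IPK that inhibits PERK, was at 11.51 and 11.52 in EA, 11.37 and 11.53 in EA with hormone, 12.19 and 12.23 in YF, and 11.55 and 12.002 in YF with hormone. Its difference was -0.51 (SE 0.11, adjusted p = 0.032), 4 of its 5 probe sets were called lower, and the YF with hormone array nearest to EA was replicate 1. The call was lost when any 1 of the 6 arrays of the other groups was left out (adjusted p 0.077 to 0.10), and held without either YF with hormone array. Pdia4, the disulfide isomerase ERp72, was the exception, at 8.15 and 7.78 in EA, 7.65 and 7.52 in EA with hormone, 7.05 and 6.97 in YF, and 7.001 and 6.850 in YF with hormone. Its EA arrays were all higher, by 0.81 (SE 0.10, adjusted p = 0.0046).

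The central ER stress genes were close between the mutants when averaged over treatments. Hspa5 was at 13.58 and 13.56 in EA, 13.58 and 13.67 in EA with hormone, 13.77 and 13.67 in YF, and 13.73 and 13.73 in YF with hormone. The EA and YF ranges met at 13.67, and the difference was -0.12 (SE 0.04, adjusted p = 0.085), while its second probe set passed at -0.22 (SE 0.03, adjusted p = 0.0066). Hsp90b1, the ER form of HSP90 (GRP94), was at 13.60 and 13.52 in EA, 13.41 and 13.67 in EA with hormone, 13.66 and 13.59 in YF, and 13.45 and 13.41 in YF with hormone. The mutants overlapped, with 0.02 (SE 0.06, adjusted p = 0.86). A dimmer probe set of Hsp90b1 passed at -0.21. Xbp1 overlapped as well, at 10.70 and 10.47 in EA, 10.50 and 10.81 in EA with hormone, 10.55 and 10.87 in YF, and 10.18 and 10.79 in YF with hormone (0.02, SE 0.17). These probe sets do not separate spliced from unspliced Xbp1 RNA. Herpud1 had 0.22 (SE 0.08, adjusted p = 0.16), and its mutants overlapped once the hormone arrays were included. Without hormone its difference was wider, at 0.49 (SE 0.11, adjusted p = 0.056), and the arrays did not overlap. They were at 10.69 and 10.77 in EA and at 10.21 and 10.26 in YF. With hormone the difference was -0.06 (SE 0.11). The other 10 ER genes did not pass and lay between -0.66 (Sdf2l1, a cofactor of BiP, SE 0.22) and 0.09 (Dnajb9).

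**Figure D3:**
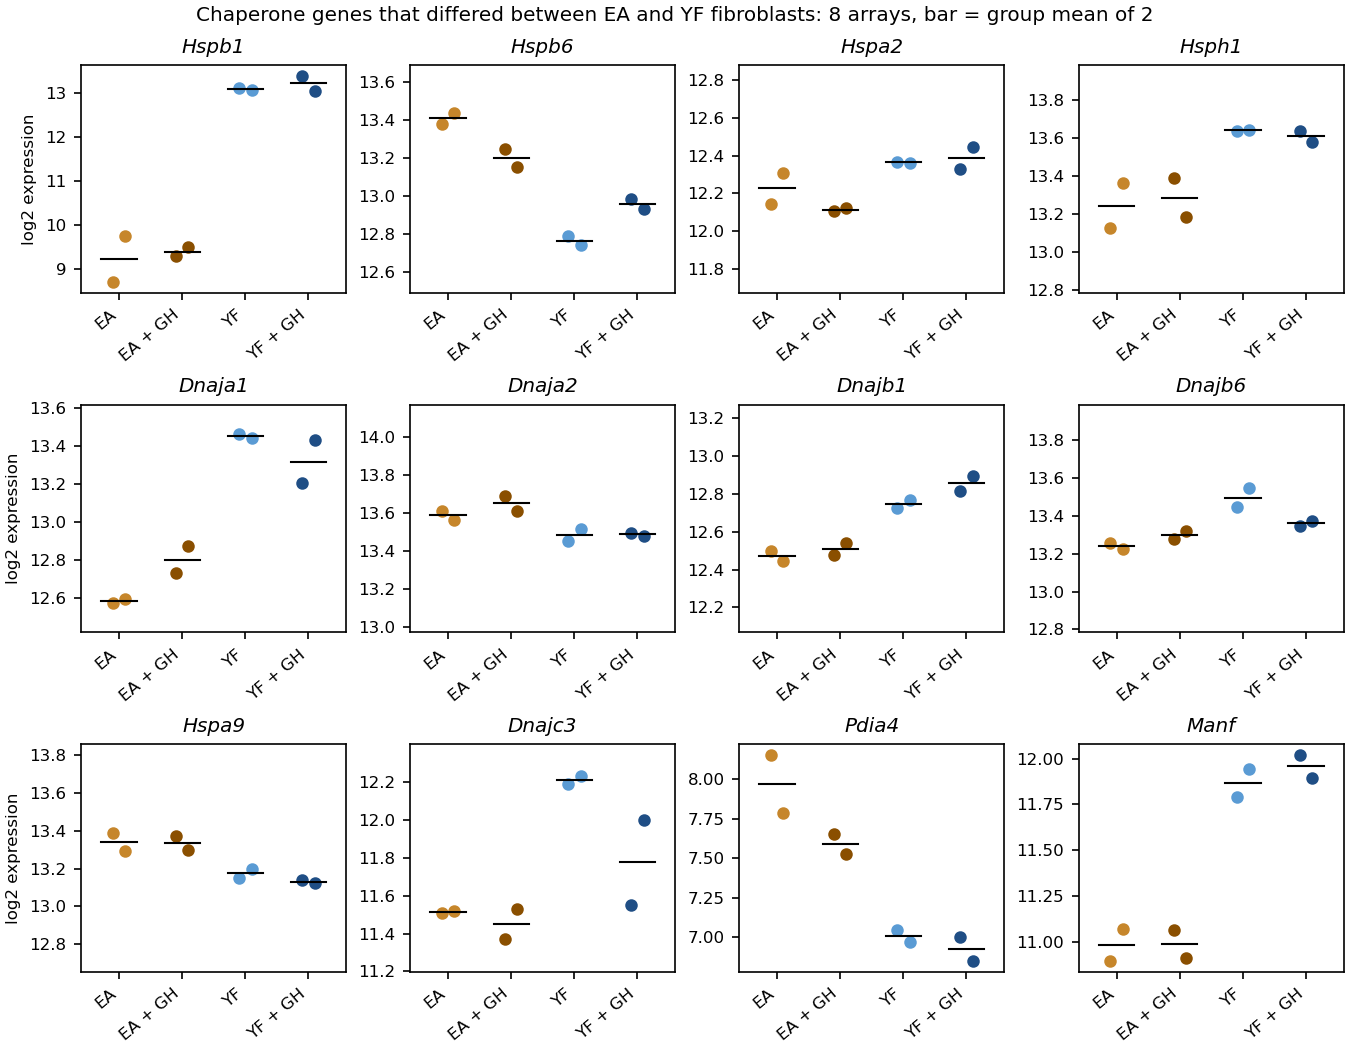
Log2 expression on each array for the genes called between the mutants, 1 panel a gene, with points for arrays and bars for the mean of 2 arrays in each of the 4 groups; each panel has its own axis, which does not start at 0. Hspb1 shows the widest gap, with EA arrays at 8.70 to 9.75 and YF arrays at 13.03 to 13.38, and Hspb6 and Pdia4 are higher in EA.

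**Figure D4:**
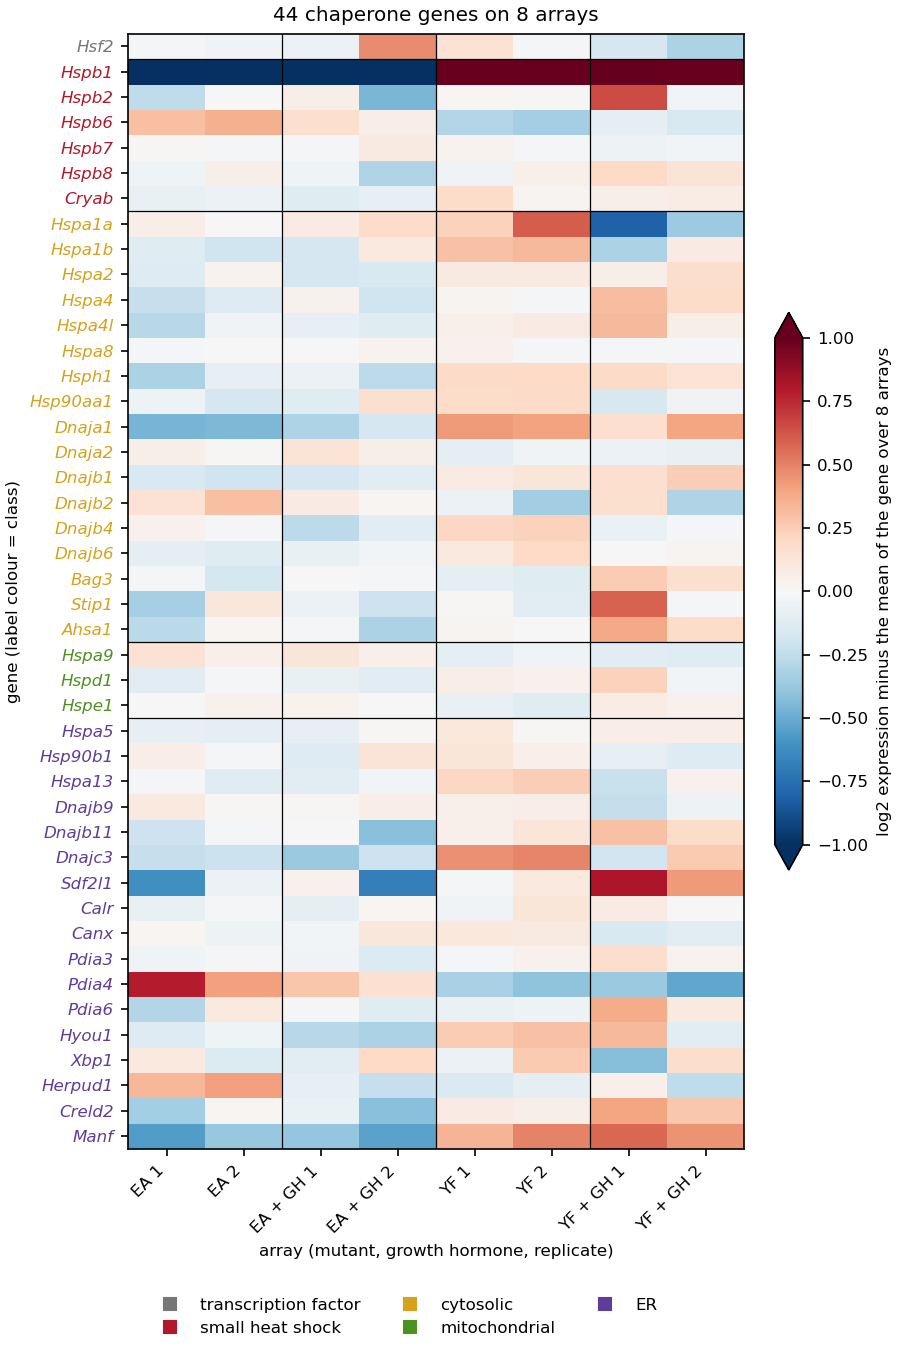
Log2 expression minus the gene's own mean for 44 chaperone genes (rows) on the 8 arrays (columns), with label colours for the class. Hspb1 has the strongest contrast between EA and YF columns, while rows such as Hspa8 and Calr are nearly even, with differences of 0.006 and -0.08.

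Probe sets of the same gene often gave different answers. Of 27 genes with more than 1 probe set above the low group, 3 had all probe sets lower in EA, 1 had all higher and 9 had none called. The other 14 were mixed, and 1 of these, Dnaja2, was called in both directions. The median range of the difference between probe sets of a gene was 0.33. Pdia6, a disulfide isomerase that attenuates IRE1, had -1.34 (adjusted p = 0.0015) on its dimmer probe set and -0.17 on the brighter one. Hspa4l, an HSP110 relative, had 3 called probe sets at -1.06, -0.84 and -0.80 and 2 brighter ones at -0.26 and -0.15 that were not called. Hsp90aa1, the inducible cytosolic HSP90, had -0.72 and -0.62 on called probe sets and -0.09 on its brightest. Hspa13, an HSP70 relative of the ER, had -0.81 and -0.48 against -0.13, and Pdia3, the disulfide isomerase of glycoproteins, had -0.73 against -0.12. Hspa4, another HSP110, had -0.70 and -0.44 against -0.26. Dnajb6 was the reverse, with its brightest probe set called at -0.16 and the others, at -0.80, -0.42 and -0.26, not called (adjusted p 0.082 to 0.31). Canx, the membrane lectin calnexin, had 1 called probe set at 0.30 and its brightest at 0.03. In the 6 genes from Pdia6 to Hspa4 the brightest probe set gave the uncalled value. The parts of the transcripts that these probe sets match were not analysed here.

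**Figure D5:**
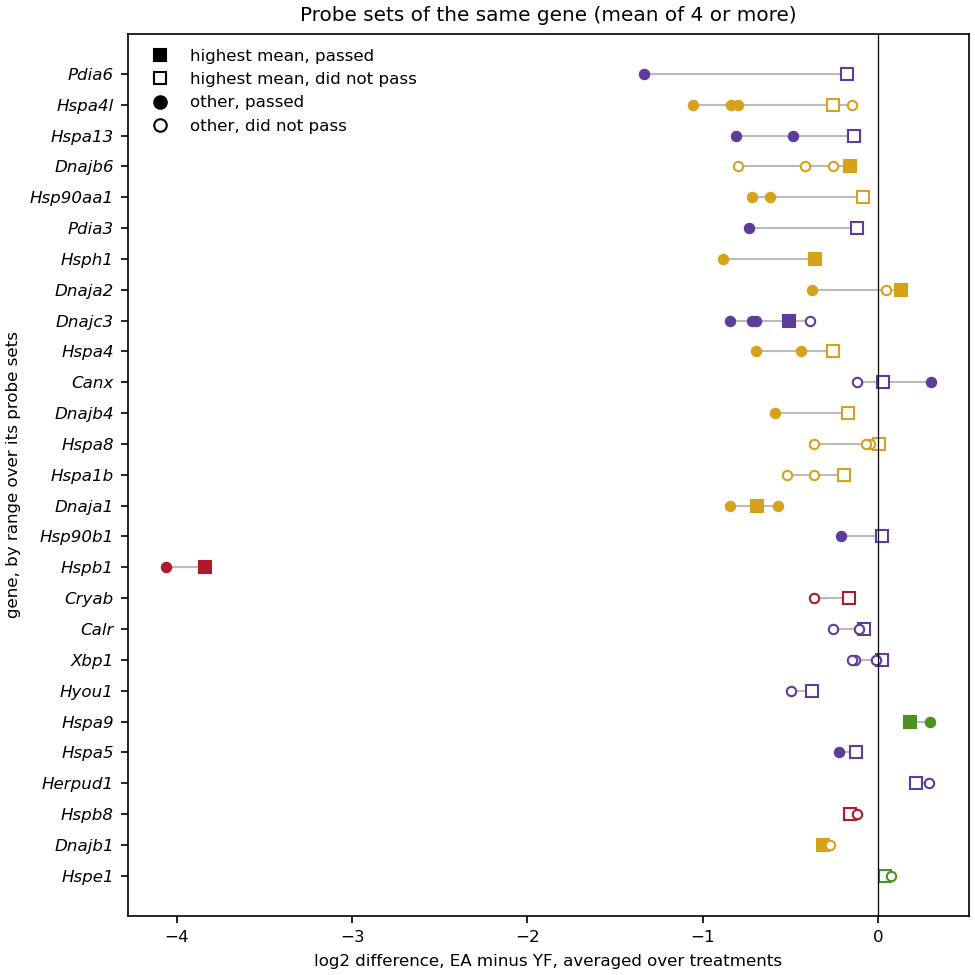
Log2 difference EA minus YF, averaged over treatments, for every probe set with a mean of 4 or more in genes that have several; squares mark the probe set with the highest mean, circles the others, and filled symbols passed an adjusted p of 0.05. Pdia6 (-1.34 and -0.17) and Hspa4l (-1.06 to -0.15) show wide ranges.

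Other genes of the same pathways were read from separate lists. Of 31 measured ER genes beyond the members, 30 with a mean of 4 or more, 5 were lower and 3 higher in EA. Among all genes at that level, 16.6% were lower and 19.7% higher. Edem1, which sends misfolded glycoproteins to degradation, was higher by 0.81 (SE 0.06, adjusted p = 0.0012), and the sensor PERK (Eif2ak3) by 0.63 (SE 0.12, adjusted p = 0.024). Edem3, a relative of Edem1, was lower, at -0.35 (SE 0.04, adjusted p = 0.0027). Serpinh1, the collagen chaperone HSP47, was lower, at -0.27. Of 44 measured cytosolic and mitochondrial genes beyond the members, 41 with a mean of 4 or more, 5 were lower and 6 higher. The same shares of all genes are the background here. Fkbp5, a cochaperone of HSP90 and of steroid receptors, was lower, at -1.33 (SE 0.13, adjusted p = 0.0025), and so was the J-domain gene Dnajb5, at -0.76 (SE 0.10, adjusted p = 0.0066). The HSP70 relative Hspa12b was higher by 1.90 (SE 0.13, adjusted p = 0.0009). Hsf4, a heat shock factor of the lens, was higher by 2.13 with its YF values in the low group, so the size of that difference is uncertain. With hormone, 0 genes of both lists passed in either mutant.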

How the data were processed

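RNA of 8 cultures was measured on Affymetrix mouse arrays. The deposited table holds log2 expression values per probe set. GCOS and RMA are named, without versions, in the submitters' processing notes, and no further normalization was applied. Of 45101 probe sets, 64 controls were left out. Exactly 1 symbol was annotated for 34945, and RefSeq GRCm38.p6 matched 34741 of these and changed 0.

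Group means were fitted with limma 3.58.1 in R 4.3.3 over all 8 arrays, with 4 residual and 1.26 prior degrees of freedom. Tests were two-sided, p-values were Benjamini-Hochberg adjusted over 45037 probe sets in each of 7 contrasts, and an adjusted p under 0.05 was called. All differences are log2, with moderated SE. The moderated SE draws on the spread of all probe sets, and precision is limited by the number of arrays. The code was tested on simulated data.

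Each gene was read from its brightest probe set by mean. Arrays are printed for genes called in any contrast and for a set of inducible and ER genes; the others are given by ranges. The members and lists were chosen with earlier results of these data known. Genes named for disagreeing probe sets, for hormone values and from the other lists were chosen after their values were seen. Alternatives were quantile normalization, median centring, filters on the mean, a variance trend, a replicate block, fits of only the arrays compared, other probe sets of a gene, and each array left out.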

Additional observations from a re-analysis of the deposited data

How the results depend on the processing

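The hormone counts of 0 member probe sets held in every alternative run. Averaged over treatments, the mutant count was 32 to 41 under the other settings and 26 to 35 with 1 array left out, against 36. The range on leaving out 1 array was 13 to 24 without hormone and 10 to 22 with hormone, against 24 each, and the lone array of a group was assumed to vary like the others. A fit of only the 4 hormone arrays called 10. With the replicate number as a block the counts were 32 averaged, 21 without and 20 with hormone, and 0 for the hormone; with the EA numbers crossed, a choice made after seeing the data, they were 40, 29, 32 and 0. The numbers did not pair the arrays, since correlations of replicate deviations ran from -0.303 to 0.367.

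The averaged calls of Hspb1, Hspb6, Dnaja1, Dnajb1, Pdia4 and Manf held in all 15 alternatives that kept the probe set. On other probe sets the calls of Dnaja1 and Hspb1 held, those of Dnajb1 (-0.27, adjusted p = 0.30) and Pdia4 (0.02, in the low group, adjusted p = 0.73) did not, and Hspb6 and Manf have 1 probe set each. Others were lost in some: Dnaja2 in 13, Hspa2 in 12, Dnajb6 in 10, Hspa9 in 9, Hsph1 in 8 and Dnajc3 in 6. In the same 15, no direction changed. It reversed in 3 cases, all on another probe set of the gene: Dnaja2 at -0.38 (adjusted p = 0.0017), and in the low group Hspa9 at -0.025 (adjusted p = 0.96) and Pdia4 without hormone at -0.032 (adjusted p = 0.87). The cause was not tested. The number of arrays, and the unknown scale of the low group, limit what can be seen.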
